A study of Homo sapiens with 16 samples.

Results

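Wnt ligands, their Frizzled receptors and LRP co-receptors, and the secreted or membrane proteins that oppose them were examined in LX-2 cells, a human hepatic stellate cell line that has been immortalised. The genes were taken by symbol: the numbered WNT, FZD, SFRP and DKK genes, together with LRP5, LRP6, WIF1, SHISA3 and AXIN2. In all, 42 of the 61806 genes of the deposited table were matched, and they comprise 19 ligands, 10 receptors, 2 co-receptors, 10 antagonists and AXIN2. FRZB, which encodes a further secreted Frizzled-related protein, bears another symbol and is not among them. Of the 42 genes, 22 passed the filter on low counts and were tested, 19 had counts below it, and WNT8A had none.

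The libraries form 4 groups of 4 replicates. Cells edited by CRISPR/Cas9 to lack all Fn14 (Fn14 KO), or to lack the isoform Fn14alpha (Fn14alpha KO), received the PBS vehicle. Wild-type cells received either TWEAK, a cytokine, at 100 ng/mL over 2 h (TWEAK) or PBS (WT). All groups were grown in the same reduced-serum medium for 24 h before treatment. The sources used here do not say whether each knockout is 1 clone or a mixture, so an effect of the edit and a property of the edited line cannot be told apart. The labels call the replicates biological and say nothing more, so the p-values measure the spread between these samples.

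Total counts ran from 13335919 to 16888606 per library. TNFRSF12A, which encodes Fn14, averaged 33.6 ± 2.77 FPKM in Fn14 KO, 59.3 ± 6.43 in Fn14alpha KO, 130.4 ± 7.07 with TWEAK and 128 ± 6.29 in WT (SD, n = 4 each), so gene-level mRNA was lower in the knockouts and present in them. Of 14 stellate cell markers 12 were tested, and their summed level was 1142 to 1225 FPKM in Fn14 KO, 616 to 632 in Fn14alpha KO, 958 to 1033 with TWEAK and 769 to 812 in WT. Most of that sum came from VIM, COL1A1, SPARC and TIMP1, and other markers had lower means in Fn14 KO than in WT: 8.33 and 23.7 FPKM for COL3A1, 0.995 and 3.79 for DCN, 0.168 and 4.66 for LUM, 0.16 and 1.48 for COL1A2, and 0.45 and 2.05 for HAND2. TAGLN (89.8 and 25.4 FPKM) and PDGFRB (3.92 and 1.79) had higher means in Fn14 KO than in WT. In Fn14alpha KO the means were 17.9 FPKM for COL3A1, 0.4725 for DCN, 0.32 for LUM, 0.425 for COL1A2 and 1.79 for HAND2, all below WT. ACTA2 (1.21 and 2.83 FPKM in Fn14alpha KO and WT) and PDGFRB (1.55 and 1.79) were also lower there, and TAGLN (43.2 and 25.4) was higher. The defining markers LRAT (2 counts in all) and DES (73 counts) were below the filter, and the part of the marker shift in the results was not tested. Summed markers of hepatocytes, endothelium and leukocytes stayed between 0.26 and 3.1 FPKM in every library. ALB had 11, CDH5 6 and PTPRC 25 counts over the 16 libraries. The genes of these lists with the most counts were SERPINA1 (1941), TEK (1028) and CD14 (446), in the same order of lists. Their means in Fn14 KO and WT were 0.42 and 2.38 FPKM for SERPINA1, 0.29 and 1.46 for TEK, and 1.115 and 1.345 for CD14. Cholangiocyte markers summed to 11.3 to 12.8 FPKM in Fn14 KO, 5.57 to 7.2 in Fn14alpha KO, 5.38 to 6.06 with TWEAK and 5.19 to 6.29 in WT, most of it SOX9, with EPCAM at 32 counts. On the component that held 5.43% of the variance, Fn14 KO replicate 1 (24.5) and WT replicate 4 (37.0) stood outside the range of the remaining libraries (-19.9 to 10.4).

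Wnt proteins are lipid-modified secreted signals that bind Frizzled receptors. When a ligand also engages LRP5 or LRP6, the complex that degrades beta-catenin is blocked, and beta-catenin acts with TCF and LEF factors on target genes, among them AXIN2 and DKK1. Other ligands, with WNT5A as the best-known case, act mostly through receptors such as ROR1 and ROR2 without beta-catenin. Secreted Frizzled-related proteins bind ligands, Dickkopf proteins bind LRP5 and LRP6, and Shisa proteins, as known from Xenopus, hold Frizzled receptors inside the cell. In the liver, Wnt signals take part in zonation of hepatocytes and in the activation of stellate cells.

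Across the 22 tested genes the knockouts showed many differences and TWEAK few. In Fn14 KO against WT, 8 were higher and 10 lower (81.8%), where 52.9% of the 16029 genes tested passed (26.6% higher and 26.3% lower). In Fn14alpha KO against WT, 9 were higher and 7 lower (72.7%), beside 42.2% of all genes (20% higher and 22.2% lower). With TWEAK against WT, 1 was higher and 1 lower (9.09%), beside 6.87% of all genes (4.82% higher and 2.05% lower). Fn14 KO was higher than Fn14alpha KO for 11 and lower for 10 (95.5%), beside 59.2% of all genes (30.7% higher and 28.5% lower). These calls use edgeR's quasi-likelihood test at a false discovery rate of 0.05, and the comparisons with WT share the WT libraries. Without Fn14 KO replicate 1 and WT replicate 4 together, 18 genes were called in Fn14 KO, 17 in Fn14alpha KO and 4 with TWEAK against WT, and 20 between the knockouts.

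A gene that is low in some groups is tested through the groups where it is high, so the filter favours genes that differ. Of the 22, 5 (SHISA3, WNT10B, WNT11, WNT2B and WNT9A) passed it in fewer than all groups. Among the other 17, the calls were 8 higher and 6 lower in Fn14 KO against WT, 8 and 6 in Fn14alpha KO against WT, 1 and 1 with TWEAK against WT, and 10 and 6 in Fn14 KO against Fn14alpha KO. The share called over all genes that passed in every group is not given here, so these counts have no matching background. The median log2 fold change of the 22 was -0.24 in Fn14 KO, 0.25 in Fn14alpha KO and -0.08 with TWEAK, each against WT, where the medians of all genes were -0.01, 0.01 and -0.01. Scaling by library totals shifted the median of all genes by -0.12 in Fn14 KO against WT and by -0.15 in Fn14 KO against Fn14alpha KO. Under that scaling the split was 6 higher and 11 lower in Fn14 KO, 0 and 4 with TWEAK, and 7 and 10 between the knockouts. The FPKM levels given here carry that scaling, and the fold changes carry TMM scaling, so ratios of levels can differ from the folds printed with them.

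**Figure D1:**
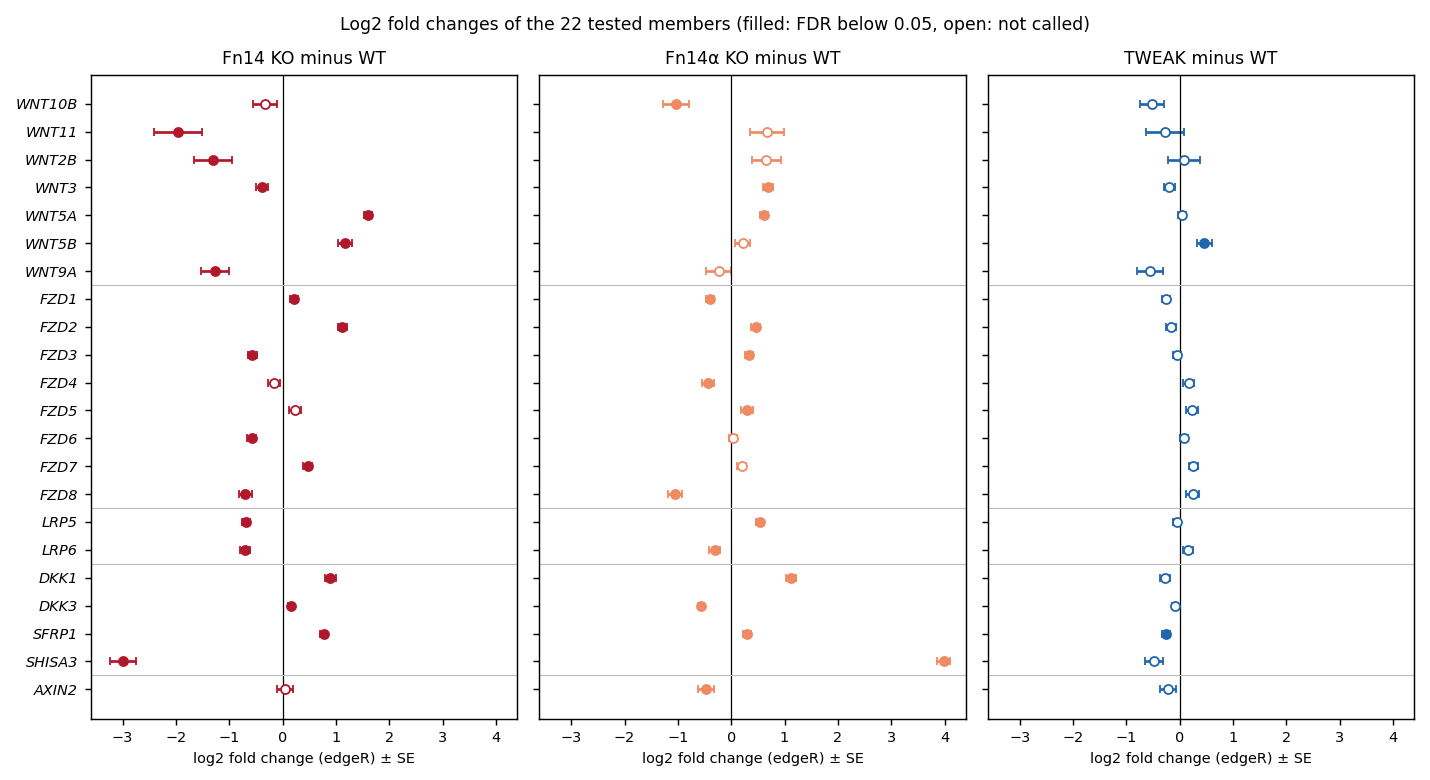
Log2 fold change of each of the 22 tested genes (x axis, edgeR, bars are SE) in Fn14 KO, Fn14alpha KO (Fn14α KO in the plot) and TWEAK against WT, with 4 libraries a group, ordered as ligands, receptors, co-receptors, antagonists and AXIN2. Filled points passed the false discovery rate of 0.05. SHISA3 stands at -2.99 in Fn14 KO and at 3.99 in Fn14alpha KO, and in the TWEAK panel 2 points are filled.

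Wnt ligands were represented mainly by WNT5A, and more of it was present in both knockouts than in WT. Summed over the 19 ligand genes, the level was 35.0 ± 1.81 FPKM in Fn14 KO, 24.1 ± 1.68 in Fn14alpha KO, 16.6 ± 0.959 with TWEAK and 16.8 ± 0.375 in WT (SD, n = 4 each). WNT5A made up 75.9% of that sum in Fn14 KO, 61.5% in Fn14alpha KO, 56.2% with TWEAK and 56.5% in WT. In bulk RNA, fewer cells that express a gene and less RNA per cell cannot be told apart.

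WNT5A (ENSG00000114251, GRCh38 chromosome 3, 55465715 to 55490539, minus strand) had 24.7, 26.9, 25.0 and 29.8 FPKM in Fn14 KO, 15.1, 13.7, 15.6 and 15.0 in Fn14alpha KO, 8.27, 10.7, 9.06 and 9.35 with TWEAK, and 9.89, 9.47, 9.62 and 8.91 in WT. Every Fn14 KO library lay above every Fn14alpha KO library, those lay above all wild-type libraries, and the TWEAK and WT values overlapped. It rose 3.04-fold in Fn14 KO (log2 fold change 1.61 ± 0.07 SE, edgeR adjusted p = 8.55e-15) and 1.53-fold in Fn14alpha KO (0.61 ± 0.07, edgeR adjusted p = 3.52e-07), both against WT. The Fn14 KO level was also 1.99-fold that of Fn14alpha KO (0.99 ± 0.07, edgeR adjusted p = 3.44e-11). The 50 tested genes on either side of WNT5A had a median log2 fold change of 0.48 in Fn14 KO and 0.20 in Fn14alpha KO, and with that median removed WNT5A was still called in each of these comparisons.

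The RefSeq promoter table of GRCh38.p14 holds 2 start sites of WNT5A. The 250 bases before each are printed because WNT5A is the ligand with the highest level and because WNT5A promoters were searched with those of the antagonists described below; the last base stands just before the start site, and no motif searched was found in either.
WNT5A start A, chr3:55481399-55481648, minus strand: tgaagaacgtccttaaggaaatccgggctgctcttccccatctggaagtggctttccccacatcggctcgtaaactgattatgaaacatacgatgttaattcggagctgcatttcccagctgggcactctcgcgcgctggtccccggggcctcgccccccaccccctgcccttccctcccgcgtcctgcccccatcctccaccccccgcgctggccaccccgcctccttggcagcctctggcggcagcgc
WNT5A start B, chr3:55487307-55487556, minus strand: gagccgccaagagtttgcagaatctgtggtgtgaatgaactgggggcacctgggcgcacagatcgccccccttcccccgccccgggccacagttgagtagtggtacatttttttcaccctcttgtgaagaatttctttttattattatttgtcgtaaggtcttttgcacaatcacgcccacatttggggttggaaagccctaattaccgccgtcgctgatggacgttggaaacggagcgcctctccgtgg

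WNT5B, a close relative of WNT5A, was higher in Fn14 KO. Its level was 7.56, 5.63, 5.34 and 4.28 FPKM in Fn14 KO, 2.98, 2.81, 3.53 and 3.73 in Fn14alpha KO, 3.55, 3.55, 3.69 and 3.71 with TWEAK, and 2.73, 2.49, 2.72 and 3.05 in WT. Fn14 KO replicate 1 was the highest library, and even the lowest Fn14 KO value was above all others. Against WT, WNT5B rose 2.25-fold in Fn14 KO (log2 fold change 1.17 ± 0.13 SE, edgeR adjusted p = 6.65e-08) while its chromosomal neighbours had a median of -0.62, and with that removed the difference was 1.79. In Fn14alpha KO the difference from WT was 0.22 ± 0.14 (95% interval -0.05 to 0.49, edgeR adjusted p = 0.212). There the neighbours' median was -0.39, and with it removed the difference was 0.61 and was called (edgeR adjusted p = 0.00145; alternatives 0.00145 to 0.459).

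WNT3, a ligand that acts through beta-catenin, moved in opposite directions in the knockouts. It stood at 1.82, 1.74, 1.5 and 2.03 FPKM in Fn14 KO, 4.15, 3.84, 4.36 and 4.27 in Fn14alpha KO, 2.25, 1.98, 2.16 and 2.06 with TWEAK, and 2.51, 2.75, 2.18 and 2.61 in WT. The Fn14alpha KO libraries lay above all others and the Fn14 KO libraries below all WT libraries. WNT3 rose 1.62-fold in Fn14alpha KO (log2 fold change 0.69 ± 0.10 SE, edgeR adjusted p = 3.77e-06) and fell in Fn14 KO (-0.39 ± 0.11, edgeR adjusted p = 0.00358), both against WT. The neighbours of WNT3 had a median of 0.28 in Fn14alpha KO, and with it removed the difference there was 0.41 and still called. Fn14 KO was at 0.474 times the Fn14alpha KO level (-1.08 ± 0.10, edgeR adjusted p = 3.04e-09).

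The other 4 tested ligands stayed under 1 FPKM in each library. WNT10B, WNT11, WNT2B and WNT9A had group means between 0.035 and 0.795 FPKM. All 4 passed the filter in fewer than all groups, WNT11 and WNT2B in none of the Fn14 KO libraries, so the filter favours a difference, and their calls are given as a description. WNT11, a ligand of cell movement, was lower in Fn14 KO than in WT (0.0900 ± 0.0825 and 0.388 ± 0.0427 FPKM, SD, n = 4 each; log2 fold change -1.97 ± 0.45 SE, edgeR adjusted p = 7.19e-04), and 1 Fn14 KO library was at 0. WNT9A was lower in Fn14 KO (-1.27 ± 0.26, edgeR adjusted p = 2.54e-04) and WNT10B in Fn14alpha KO (-1.03 ± 0.24, edgeR adjusted p = 0.00140), both against WT. The call for WNT10B was lost with the neighbours' median removed (edgeR adjusted p = 0.0693, range over the alternatives 4.26e-04 to 0.0693). WNT2B was called lower in Fn14 KO (-1.30 ± 0.35, edgeR adjusted p = 0.00335), but it shares 2661 exonic bases with ST7L on the other strand, and ST7L had 4039 counts against 264 for WNT2B. The sources used here do not say whether strand was used in counting, so reads of these overlapping genes cannot be told apart.

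**Figure D2:**
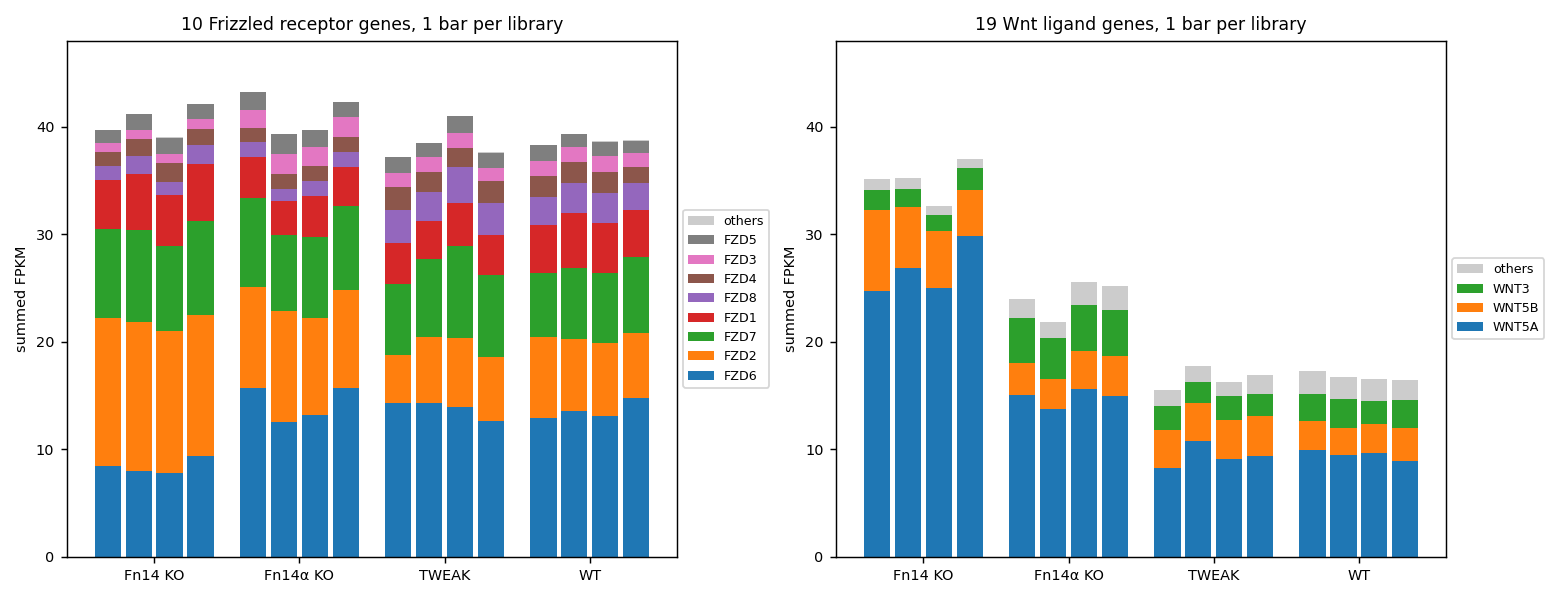
Summed FPKM (y axis) of the 10 Frizzled genes, left, and of the 19 Wnt ligand genes, right, as stacked bars with 1 bar per library and 4 libraries a group (x axis, Fn14 KO, Fn14alpha KO, TWEAK, WT). The Frizzled bars reach 37.2 to 43.3 FPKM in all groups while the parts of FZD2 and FZD6 differ, and the ligand bars reach 32.6 to 37.0 in Fn14 KO against 16.5 to 17.3 in WT.

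Frizzled receptors showed similar totals in all groups but a different make-up in Fn14 KO. The 10 genes summed to 40.5 ± 1.41 FPKM in Fn14 KO, 41.1 ± 1.95 in Fn14alpha KO, 38.6 ± 1.70 with TWEAK and 38.8 ± 0.444 in WT (SD, n = 4 each). FZD2 made up 33.4% of the sum in Fn14 KO, 23.1% in Fn14alpha KO, 14.9% with TWEAK and 17.4% in WT. FZD6 made up 20.7%, 34.6%, 35.8% and 35.1% in Fn14 KO, Fn14alpha KO, TWEAK and WT. FZD6 was thus the receptor gene with the highest mean level in Fn14alpha KO, TWEAK and WT, and FZD2 the one with the highest in Fn14 KO. These shares are a description and carry no test.

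FZD2, a receptor for WNT5A and WNT3 among others, had 13.8, 13.8, 13.3 and 13.2 FPKM in Fn14 KO, 9.44, 10.3, 8.96 and 9.11 in Fn14alpha KO, 4.48, 6.18, 6.45 and 5.99 with TWEAK, and 7.49, 6.66, 6.80 and 6.03 in WT. The knockouts did not overlap each other or the wild-type groups, and TWEAK and WT overlapped. FZD2 rose 2.17-fold in Fn14 KO (log2 fold change 1.12 ± 0.09 SE, edgeR adjusted p = 2.43e-10) and 1.37-fold in Fn14alpha KO (0.46 ± 0.09, edgeR adjusted p = 2.75e-04), both against WT. In Fn14alpha KO its chromosome 17 neighbours had a median of 0.35, and with it removed the difference was 0.11 and no longer called (edgeR adjusted p = 0.386, range over the alternatives 8.42e-06 to 0.386).

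FZD6, which restrains beta-catenin signalling and serves in planar polarity, stood at 8.41, 7.97, 7.77 and 9.34 FPKM in Fn14 KO, 15.7, 12.5, 13.2 and 15.7 in Fn14alpha KO, 14.3, 14.3, 13.9 and 12.6 with TWEAK, and 12.9, 13.6, 13.1 and 14.8 in WT. All Fn14 KO libraries were below all others, and the remaining groups overlapped. FZD6 fell by 0.58 ± 0.08 on the log2 scale in Fn14 KO against WT (edgeR adjusted p = 2.22e-06). In Fn14alpha KO the difference from WT was 0.04 ± 0.08 (95% interval -0.12 to 0.20, edgeR adjusted p = 0.742). BAALC-AS1, on the other strand, shares 138 exonic bases with FZD6 and had 5.95% of its count.

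FZD8, a receptor that couples to LRP6, was lower in both knockouts. Its levels were 1.34, 1.68, 1.23 and 1.77 FPKM in Fn14 KO, 1.39, 1.06, 1.38 and 1.42 in Fn14alpha KO, 3.00, 2.72, 3.41 and 2.96 with TWEAK, and 2.59, 2.76, 2.80 and 2.52 in WT. No knockout library reached the lowest wild-type library, and the knockouts overlapped each other. FZD8 fell by 1.05 ± 0.13 on the log2 scale in Fn14alpha KO (edgeR adjusted p = 2.96e-07) and by 0.70 ± 0.12 in Fn14 KO (edgeR adjusted p = 3.17e-05), both against WT.

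FZD3, a receptor of axon guidance and planar polarity, moved in opposite directions. It had 0.780, 0.850, 0.870 and 0.990 FPKM in Fn14 KO, 1.71, 1.85, 1.76 and 1.9 in Fn14alpha KO, 1.31, 1.34, 1.33 and 1.20 with TWEAK, and 1.36, 1.41, 1.49 and 1.33 in WT. The Fn14 KO libraries were the lowest 4 and the Fn14alpha KO libraries the highest 4 of the 16. Against WT, FZD3 fell by 0.57 ± 0.09 in Fn14 KO (edgeR adjusted p = 5.41e-06) and rose by 0.34 ± 0.08 in Fn14alpha KO (edgeR adjusted p = 0.00168), both on the log2 scale.

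FZD7, a receptor found on many stem and progenitor cells, was higher in Fn14 KO, at 8.26, 8.60, 7.84 and 8.73 FPKM, beside 8.25, 7.04, 7.61 and 7.80 in Fn14alpha KO, 6.59, 7.28, 8.53 and 7.60 with TWEAK, and 5.93, 6.69, 6.50 and 7.03 in WT. Only the WT values lay wholly below those of Fn14 KO. The rise over WT was 1.39-fold in Fn14 KO (log2 fold change 0.47 ± 0.08 SE, edgeR adjusted p = 3.06e-05). In Fn14alpha KO it was not called (0.20 ± 0.08, edgeR adjusted p = 0.0543), nor with TWEAK (0.26 ± 0.08, edgeR adjusted p = 0.0621).

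FZD1, a receptor for WNT3A among others, had 4.58, 5.20, 4.80 and 5.27 FPKM in Fn14 KO, 3.87, 3.21, 3.79 and 3.62 in Fn14alpha KO, 3.83, 3.46, 4.00 and 3.71 with TWEAK, and 4.48, 5.09, 4.63 and 4.41 in WT. Fn14alpha KO and TWEAK libraries lay below all WT libraries, and Fn14 KO overlapped WT. FZD1 fell by 0.39 ± 0.08 on the log2 scale in Fn14alpha KO against WT (edgeR adjusted p = 2.98e-04), and with TWEAK the difference from WT was -0.25 ± 0.08 (edgeR adjusted p = 0.0538). In Fn14 KO it was called higher than in WT (0.21 ± 0.08, edgeR adjusted p = 0.0264). That call was lost without WT replicate 1 or 4 or Fn14 KO replicate 2 or 4 (edgeR adjusted p 0.0598 to 0.0745) and under library totals (0.337). It was also lost with no filter on low counts (edgeR adjusted p = 0.0774) and with the 2 groups compared only (0.0565). By limma it was lost on log2(FPKM + 1) (limma adjusted p = 0.311) and on log2(FPKM + 0.1) (0.326). The difference was 0.39 with the neighbours' median removed, and the range over the alternatives was 2.14e-04 to 0.337.

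FZD4, the norrin receptor, and FZD5 varied least clearly. FZD4 stood at 1.31, 1.57, 1.74 and 1.49 FPKM in Fn14 KO, 1.27, 1.47, 1.40 and 1.42 in Fn14alpha KO, 2.17, 1.91, 1.78 and 2.09 with TWEAK, and 2.00, 1.95, 1.95 and 1.49 in WT. Its Fn14alpha KO values lay just below those of WT (log2 fold change -0.44 ± 0.11 SE, edgeR adjusted p = 0.00237). FZD4 shares 1399 exonic bases with PRSS23 on the other strand, which had 78679 counts against 3019, so how many of these counts belong to FZD4 is uncertain. FZD5 had 1.28, 1.5, 1.41 and 1.38 FPKM in Fn14 KO, 1.66, 1.81, 1.56 and 1.37 in Fn14alpha KO, 1.47, 1.29, 1.60 and 1.45 with TWEAK, and 1.47, 1.22, 1.34 and 1.11 in WT, and all groups overlapped. FZD5 was called higher in Fn14alpha KO than in WT (0.29 ± 0.11, edgeR adjusted p = 0.0408), and this was lost without WT replicate 2 or 4 or Fn14alpha KO replicate 1, 2 or 3 (edgeR adjusted p 0.0585 to 0.145), where the alternatives ran from 0.0169 to 0.145. It was also lost with no filter on low counts (edgeR adjusted p = 0.117) and with the 2 groups compared only (0.0620). The same held without Fn14 KO replicate 1 and WT replicate 4 together (0.107) and with the neighbours' median removed (0.0694).

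Between the knockouts, FZD1, FZD2, FZD4, FZD7 and FZD8 were called higher and FZD3 and FZD6 lower in Fn14 KO than in Fn14alpha KO. The differences of FZD1 (0.60 ± 0.08), FZD2 (0.66 ± 0.09), FZD3 (-0.90 ± 0.08) and FZD6 (-0.62 ± 0.08) on the log2 scale were called under every alternative (edgeR adjusted p 5.63e-07, 7.42e-07, 2.63e-09 and 7.31e-07). FZD4 (0.29 ± 0.11, edgeR adjusted p = 0.0331) was lost without Fn14alpha KO replicate 1 or 3 or Fn14 KO replicate 2 or 3 (0.0525 to 0.125; alternatives 0.00465 to 0.354). FZD8 (0.35 ± 0.13, edgeR adjusted p = 0.0281) was lost without Fn14alpha KO replicate 2 or Fn14 KO replicate 2 or 4 (0.0922 to 0.111) and stood at -0.03 with the neighbours' median removed (0.876; alternatives 0.0102 to 0.876). FZD7 (0.27 ± 0.08, edgeR adjusted p = 0.00581) was lost under library totals (0.202, alternatives 0.00290 to 0.202). Under library totals FZD4 (edgeR adjusted p = 0.309) and FZD8 (0.208) were lost too. All 3 were also lost by limma on log2(FPKM + 1) (limma adjusted p = 0.354 for FZD4, 0.224 for FZD8 and 0.181 for FZD7) and on log2(FPKM + 0.1) (0.345, 0.203 and 0.184). FZD8 was lost as well with the 2 groups compared only (edgeR adjusted p = 0.0727).

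The co-receptors LRP5 and LRP6 were both lower in Fn14 KO. LRP5 had 5.09, 5.85, 5.64 and 5.91 FPKM in Fn14 KO, 14.8, 13.7, 15.2 and 14.2 in Fn14alpha KO, 8.40, 9.42, 9.60 and 8.66 with TWEAK, and 10.6, 9.80, 10.1 and 8.65 in WT. Fn14 KO was below and Fn14alpha KO above all wild-type libraries, and TWEAK overlapped WT. Against WT, LRP5 fell by 0.68 ± 0.07 on the log2 scale in Fn14 KO (edgeR adjusted p = 2.96e-08) and rose by 0.53 ± 0.07 in Fn14alpha KO (edgeR adjusted p = 1.41e-06). Fn14 KO held 0.431 times the Fn14alpha KO level (-1.21 ± 0.07, edgeR adjusted p = 8.14e-13), and the neighbours' medians were between -0.01 and 0.08 in these 3 comparisons.

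LRP6 stood at 2.35, 2.78, 2.49 and 3.15 FPKM in Fn14 KO, 4.30, 3.75, 3.41 and 4.28 in Fn14alpha KO, 5.11, 5.03, 5.39 and 4.90 with TWEAK, and 5.05, 5.30, 4.94 and 3.78 in WT. Fn14 KO lay below all other libraries, and WT replicate 4, the lowest of its group, fell within the range of Fn14alpha KO. LRP6 was called lower than in WT in Fn14 KO (log2 fold change -0.71 ± 0.10 SE, edgeR adjusted p = 2.32e-06) and in Fn14alpha KO (-0.31 ± 0.10, edgeR adjusted p = 0.0142). Its 100 tested neighbours on chromosome 12 had medians of -0.65 and -0.58 in Fn14 KO and Fn14alpha KO. With these medians removed the difference was -0.05 in Fn14 KO (edgeR adjusted p = 0.715; alternatives 3.02e-14 to 0.715) and turned to 0.27 in Fn14alpha KO (edgeR adjusted p = 0.0416; alternatives 4.78e-05 to 0.0639). The Fn14alpha KO call was also lost without WT replicate 2 (edgeR adjusted p = 0.0591) or Fn14alpha KO replicate 3 (0.0639). By limma it was lost on log2(FPKM + 1) (limma adjusted p = 0.0545) and on log2(FPKM + 0.1) (0.0619).

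**Figure D3:**
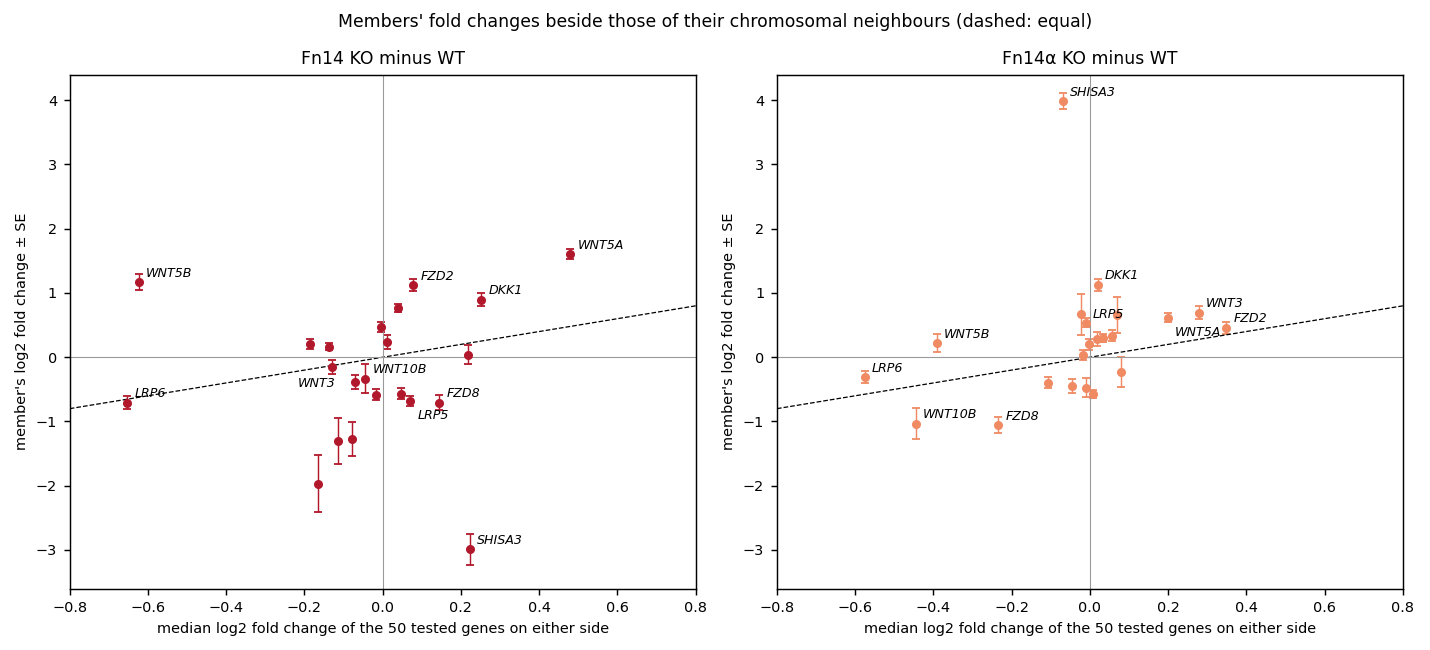
Log2 fold change of each tested gene (y axis, edgeR, bars are SE) against the median log2 fold change of the 50 tested genes on either side of it on the chromosome (x axis), for Fn14 KO and Fn14alpha KO against WT, 4 libraries a group; the dashed line marks equal values. In Fn14 KO, LRP6 (-0.71) lies on the line with its neighbours (-0.65), and WNT5B (1.17) lies far above its own (-0.62).

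Among the antagonists, SHISA3 showed the largest difference of any of the 22 genes, and its direction was opposite in the knockouts. SHISA3, a membrane protein of that family (ENSG00000178343, GRCh38 chromosome 4, 42397488 to 42402487, plus strand), had 0.120, 0.130, 0.240 and 0.270 FPKM in Fn14 KO, 26.6, 25.7, 25.0 and 30.3 in Fn14alpha KO, 1.40, 1.03, 1.25 and 0.840 with TWEAK, and 1.36, 1.96, 1.72 and 1.56 in WT. The Fn14alpha KO libraries were far above and the Fn14 KO libraries far below all wild-type libraries, and TWEAK overlapped WT. SHISA3 rose 15.8-fold in Fn14alpha KO (log2 fold change 3.99 ± 0.12 SE, edgeR adjusted p = 1.72e-17) and fell in Fn14 KO (-2.99 ± 0.24, edgeR adjusted p = 2.80e-10), both against WT. Between the knockouts the difference was -6.98 ± 0.17 (edgeR adjusted p = 7.52e-20), with 27 counts over the 4 Fn14 KO libraries and 3648 over the 4 Fn14alpha KO libraries. On the log2(FPKM + 1) scale, which understates changes of low levels, limma gave -1.15 for Fn14 KO against WT, and the 100 neighbours of SHISA3 had medians of 0.22 in Fn14 KO and -0.07 in Fn14alpha KO. No Fn14 KO library of SHISA3 passed the filter, so it was tested through the other groups, and its call there is given as a description.

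DKK1, the Dickkopf protein that binds LRP5 and LRP6 and is itself a beta-catenin target, had the highest level of all 42 genes. DKK1 (ENSG00000107984, GRCh38 chromosome 10, 52314281 to 52318042, plus strand) stood at 109, 103, 106 and 109.7 FPKM in Fn14 KO, 133, 138, 141 and 144 in Fn14alpha KO, 60.2, 39.0, 56.9 and 41.6 with TWEAK, and 62.7, 61.2, 60.9 and 64.3 in WT. Both knockouts lay above all wild-type libraries, Fn14alpha KO above Fn14 KO, and the TWEAK libraries lay below WT with replicates 2 and 4 lowest. DKK1 rose 2.18-fold in Fn14alpha KO (log2 fold change 1.13 ± 0.10 SE, edgeR adjusted p = 4.15e-09) and 1.86-fold in Fn14 KO (0.90 ± 0.10, edgeR adjusted p = 6.90e-08), both against WT. With TWEAK the difference from WT was -0.27 ± 0.10 (95% interval -0.47 to -0.08, edgeR adjusted p = 0.105). Fn14 KO was called lower than Fn14alpha KO (-0.23 ± 0.10, edgeR adjusted p = 0.0458), and this call was lost without WT replicate 1, 2 or 3, Fn14alpha KO replicate 2, 3 or 4, or any 1 of the 4 Fn14 KO libraries (edgeR adjusted p 0.0508 to 0.103; alternatives 4.07e-04 to 0.103). The call was also lost without Fn14 KO replicate 1 and WT replicate 4 together (edgeR adjusted p = 0.0911). With the neighbours' median removed the difference was -0.46, and under library totals -0.38, both called.

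The promoters of DKK1 and SHISA3, the antagonists with the largest rises in Fn14alpha KO, are printed from RefSeq (GRCh38.p14) as the 250 bases before the start site. Capitals mark matches to the TCF/LEF letters CTTTGNN, where each N had to be A or T, searched on both strands. DKK1 holds matches that begin 95 and 76 bases before the start, and SHISA3 holds none.
DKK1, chr10:52314031-52314280, plus strand: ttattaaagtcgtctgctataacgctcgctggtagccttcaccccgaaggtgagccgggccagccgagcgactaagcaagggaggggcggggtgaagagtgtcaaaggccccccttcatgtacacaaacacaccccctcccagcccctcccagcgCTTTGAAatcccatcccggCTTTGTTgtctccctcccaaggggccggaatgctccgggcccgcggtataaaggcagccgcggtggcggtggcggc
SHISA3, chr4:42397238-42397487, plus strand: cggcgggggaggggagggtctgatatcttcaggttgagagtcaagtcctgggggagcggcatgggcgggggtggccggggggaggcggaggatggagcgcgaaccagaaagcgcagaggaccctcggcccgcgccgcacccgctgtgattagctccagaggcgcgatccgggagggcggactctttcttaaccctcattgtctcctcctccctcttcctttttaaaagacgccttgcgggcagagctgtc
Of 35116 promoter windows of this length in the table, 12% held the TCF/LEF letters. The table matched 28 of the 42 genes, and 1 of them, DKK1, held these letters. The AP-1 letters TGANTCA were in 6.57% of all windows and in 0 of the 28 genes. The NF-kB consensus was in 5.21% of all windows and in 4 of the 28 genes. Of these 4, FZD9, WNT10A and WNT4 were below the filter on low counts. FZD5 was the only match among the 12 tested genes that the table held. Some genes, such as WNT5A, have more than 1 window, so shares of genes and of windows are not directly comparable. An excess was not tested. A match is a description of the sequence, and no match says only that the letters are not in this window.

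SFRP1, a secreted protein that binds Wnt ligands, rose in both knockouts. It had 17.9, 19.6, 19.1 and 20.7 FPKM in Fn14 KO, 15.1, 14.5, 15.4 and 17 in Fn14alpha KO, 9.83, 9.80, 10.7 and 9.25 with TWEAK, and 12.5, 13.1, 12.3 and 11.4 in WT. No pair of groups overlapped, and the order from high to low was Fn14 KO, Fn14alpha KO, WT, TWEAK. Against WT the rise was 1.70-fold in Fn14 KO (log2 fold change 0.77 ± 0.07 SE, edgeR adjusted p = 1.16e-09) and 1.23-fold in Fn14alpha KO (0.30 ± 0.07, edgeR adjusted p = 0.00104).

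DKK3, a Dickkopf relative that is not known as a strong LRP antagonist, fell in Fn14alpha KO. Its levels were 13.7, 13.4, 14 and 13.1 FPKM in Fn14 KO, 9.16, 9.15, 9.18 and 8.57 in Fn14alpha KO, 11.2, 11.8, 12.5 and 11.7 with TWEAK, and 13.7, 13.3, 12.8 and 12.7 in WT. The Fn14alpha KO libraries were the lowest 4 of the 16, and Fn14 KO overlapped WT. Against WT, DKK3 fell by 0.57 ± 0.06 on the log2 scale in Fn14alpha KO (edgeR adjusted p = 1.70e-08). The call in Fn14 KO (0.16 ± 0.06, edgeR adjusted p = 0.0169) was lost without Fn14 KO replicate 3 (0.0557) and under library totals (0.517), and the difference was 0.30 with the neighbours' median removed, over alternatives of 1.16e-04 to 0.517. It was also lost with no filter on low counts (edgeR adjusted p = 0.0914) and with the 2 groups compared only (0.0604). By limma it was lost on log2(FPKM + 1) (limma adjusted p = 0.456) and on log2(FPKM + 0.1) (0.462). DKK3 and USP47 overlap on opposite strands without shared exonic bases.

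AXIN2, a scaffold of the beta-catenin destruction complex and the usual readout of the pathway, had 0.950, 1.13, 1.52 and 1.03 FPKM in Fn14 KO, 0.970, 0.870, 0.840 and 0.890 in Fn14alpha KO, 0.900, 1.14, 1.08 and 0.870 with TWEAK, and 1.36, 1.25, 1.01 and 1.23 in WT. Fn14 KO replicate 3 was the highest library, and only Fn14alpha KO lay wholly below WT. AXIN2 fell by 0.47 ± 0.15 on the log2 scale in Fn14alpha KO against WT (edgeR adjusted p = 0.0131). In Fn14 KO the difference from WT was 0.04 ± 0.14 (95% interval -0.24 to 0.32, edgeR adjusted p = 0.83). Fn14 KO was called higher than Fn14alpha KO (0.51 ± 0.15, edgeR adjusted p = 0.00509), but not with the neighbours' median removed (0.29, edgeR adjusted p = 0.122, alternatives 0.00133 to 0.122). This call was also lost by limma on log2(FPKM + 1) (limma adjusted p = 0.0513) and on log2(FPKM + 0.1) (limma adjusted p = 0.0514).

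**Figure D4:**
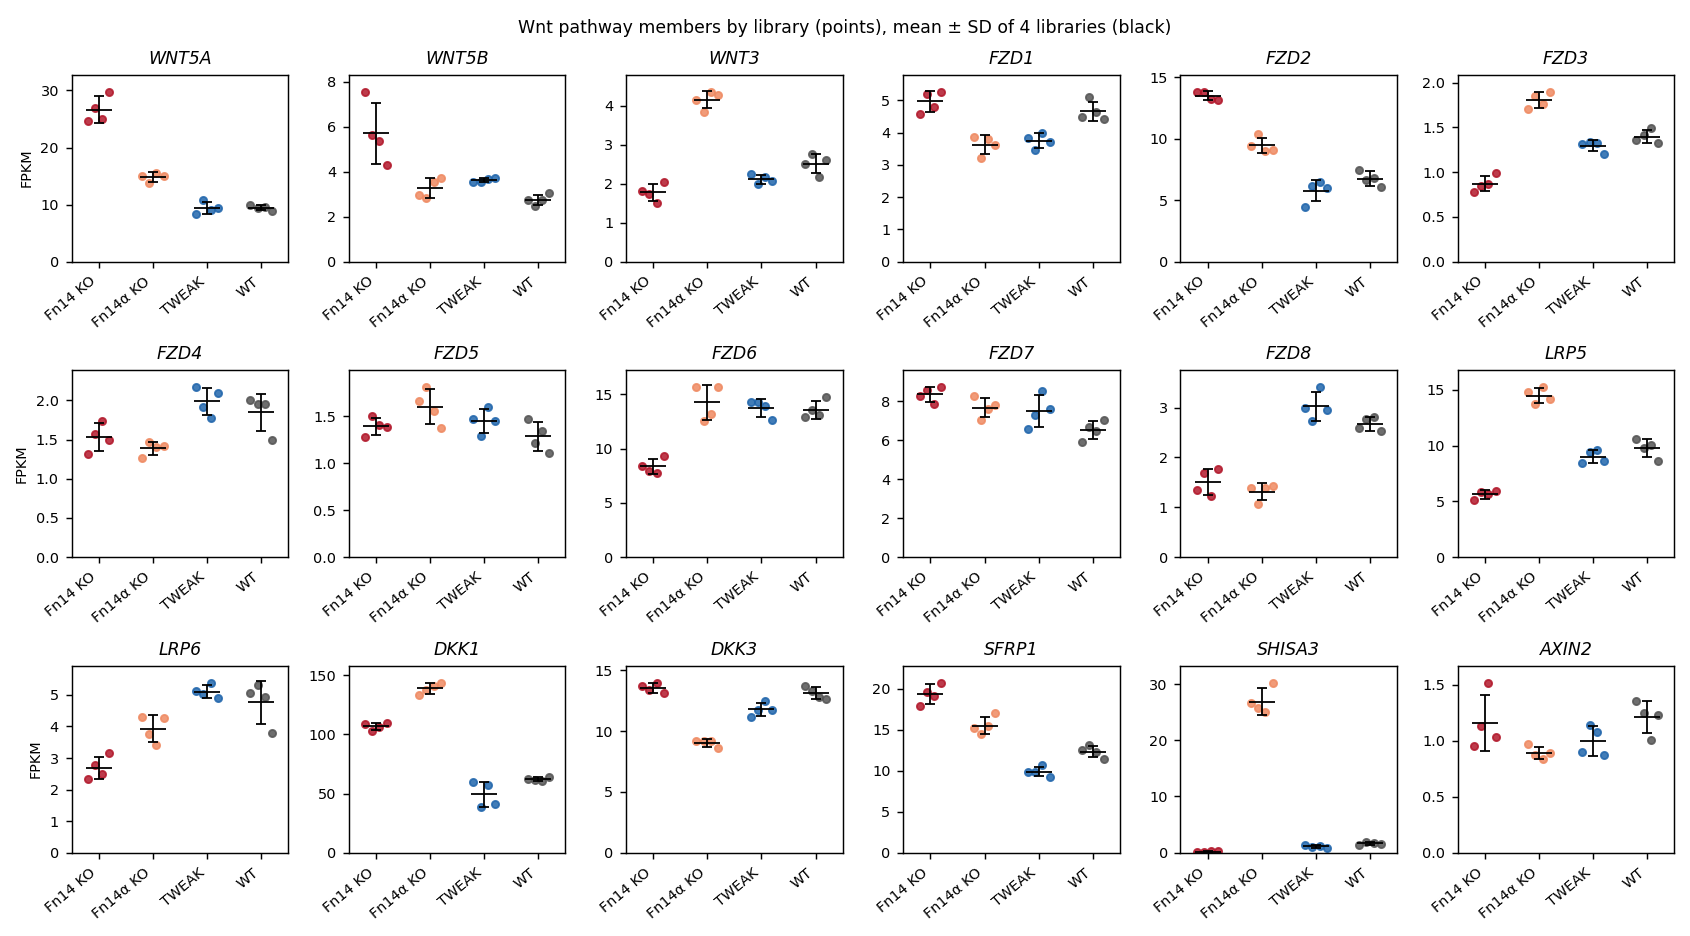
FPKM (y axis, linear from 0) of the 18 genes that averaged 1 FPKM or more in a group and had at least 1 call, for Fn14 KO, Fn14alpha KO (Fn14α KO in the plot), TWEAK and WT (x axis); points are libraries and black bars are mean ± SD of 4. SHISA3 reaches 25.0 to 30.3 in Fn14alpha KO and stays under 2 elsewhere, and WNT5A runs from 24.7 to 29.8 in Fn14 KO against 8.91 to 9.89 in WT.

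Within 2 h of TWEAK 2 of the 22 genes were called, a share near that of all genes by edgeR. WNT5B was called higher (3.62 ± 0.0870 FPKM with TWEAK and 2.75 ± 0.230 in WT, SD, n = 4 each; log2 fold change 0.46 ± 0.14 SE, edgeR adjusted p = 0.0397), with all TWEAK libraries above all WT libraries. SFRP1 was called lower (9.88 ± 0.577 FPKM with TWEAK and 12.3 ± 0.707 in WT; -0.26 ± 0.07, edgeR adjusted p = 0.0215), also without overlap. No receptor and no co-receptor was called by edgeR, with 4 receptors and 0 co-receptors at an unadjusted p under 0.05, 2 and 0 called by DESeq2 and 1 and 0 by limma.

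Both TWEAK calls depended on single libraries, and that of WNT5B also on the method. WNT5B was lost without WT replicate 1, 2 or 3, any 1 of the 4 TWEAK libraries or Fn14 KO replicate 2 (edgeR adjusted p 0.0512 to 0.110; alternatives 0.00102 to 0.110). It was also lost under library totals (0.0638), with the replicate block (0.0646) and by limma on log2(FPKM + 1) (0.0985) and log2(FPKM + 0.1) (0.0812). SFRP1 was lost without WT replicate 1 or 2 or TWEAK replicate 2 or 4 (edgeR adjusted p 0.0532 to 0.0794; alternatives 0.00246 to 0.0794). The count of 2 calls became 0 without WT replicate 1 or 2 or TWEAK replicate 2 or 4, 1 without WT replicate 3, TWEAK replicate 3 or Fn14 KO replicate 2, and 4 without Fn14 KO replicate 1. At an unadjusted p under 0.05 there were 10 of the 22 genes, beside 20.5% of all genes. By DESeq2 there were 2 higher and 2 lower calls, beside 8.77% of all genes. By limma, on the log2(FPKM + 1) scale, there were 5 calls and all were lower, beside 7.97% of all genes.

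The 20 genes that were not tested had group means of at most 0.145 FPKM (WNT7B), and 14 of them had 10 counts or fewer over the 16 libraries. The ligands with the most counts were WNT7B with 107 (3 in Fn14 KO, 43 in Fn14alpha KO, 37 with TWEAK and 24 in WT), WNT10A with 64 (5, 16, 21 and 22 in the same groups) and WNT4 with 32 (2, 12, 7 and 11). WNT2 had 14 counts, WNT3A and WNT6 had 9 each, WNT16 had 6, WNT7A and WNT9B had 4 each, WNT8B had 3 and WNT1 had 2. WNT8A, at 0 counts, allows a level of up to 0.00622 FPKM over the 16 libraries, from the 3 counts that a count of 0 allows. The receptors FZD9 and FZD10 had 7 and 1 counts. Of the antagonists, DKK2 had 34 (5, 8, 7 and 14 in Fn14 KO, Fn14alpha KO, TWEAK and WT), SFRP5 had 19, SFRP2 had 6, DKK4 and WIF1 had 3 each and SFRP4 had 2. WNT7B had 8 to 15 counts in each Fn14alpha KO library, 7 to 14 in each TWEAK library and 3 to 9 in each WT library, so reads of it were present throughout these groups. For a library at 0 counts, absence cannot be shown at this depth.

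Other genes of the pathway, taken from lists of known components, were read beside the shares of all genes called, 52.9% in Fn14 KO, 42.2% in Fn14alpha KO and 6.87% with TWEAK against WT and 59.2% between the knockouts. Of 13 receptors and planar polarity genes that act without beta-catenin, 12 were tested, with 8 higher and 2 lower in Fn14 KO, 8 and 2 in Fn14alpha KO, and 1 and 1 with TWEAK, each against WT, and 5 and 3 between the knockouts. Their median log2 fold change was 0.48 in Fn14 KO and 0.41 in Fn14alpha KO, beside -0.01 and 0.01 over all genes. DAAM2 is 1 of the 8 called higher in each knockout. It averaged 0.1 FPKM in Fn14 KO, 0.1325 in Fn14alpha KO, 0.02 with TWEAK and 0.015 in WT. As it was tested through the knockouts, where it was higher, its calls are given as a description. ROR1, a receptor for WNT5A, rose in Fn14 KO (5.39 ± 0.719 and 0.963 ± 0.0613 FPKM in Fn14 KO and WT, SD, n = 4 each; log2 fold change 2.60 ± 0.12 SE, edgeR adjusted p = 5.41e-15). In Fn14alpha KO it rose to 2.18 ± 0.269 FPKM against 0.963 ± 0.0613 in WT (1.15 ± 0.12, edgeR adjusted p = 6.43e-08). The polarity cadherin CELSR2 rose in Fn14alpha KO (6.77 ± 0.872 and 2.73 ± 0.436 FPKM in Fn14alpha KO and WT; 1.28 ± 0.12, edgeR adjusted p = 8.96e-09), and CELSR1 fell in Fn14 KO (0.338 ± 0.0499 and 1.41 ± 0.274 FPKM in Fn14 KO and WT; -1.94 ± 0.13, edgeR adjusted p = 1.04e-11). VANGL2, a membrane protein of the same system, rose with TWEAK (8.0 ± 0.461 and 5.06 ± 0.594 FPKM with TWEAK and in WT, 0.72 ± 0.09, edgeR adjusted p = 8.77e-06). It was also called higher than in WT in Fn14alpha KO (0.40, edgeR adjusted p = 0.00139) and in Fn14 KO (0.31, edgeR adjusted p = 0.00950). Against WT, CELSR2 was called lower in Fn14 KO (-0.36, edgeR adjusted p = 0.0159) and CELSR1 higher in Fn14alpha KO (0.42, edgeR adjusted p = 0.00355).

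Of 8 genes for ligand secretion and modification 4 were tested, with 1 higher and 3 lower in Fn14 KO, 2 and 2 in Fn14alpha KO, and 1 and 0 with TWEAK against WT, and 2 and 1 between the knockouts, beside the same shares of all genes. PORCN, the enzyme that adds the lipid to Wnt proteins, rose in Fn14 KO (3.60 ± 0.118 and 1.92 ± 0.220 FPKM in Fn14 KO and WT; log2 fold change 1.02 ± 0.10 SE, edgeR adjusted p = 3.65e-09), or by 0.52 with its neighbours' median removed. WLS, the carrier that brings ligands to the cell surface, fell in Fn14alpha KO (20.8 ± 0.608 and 28.6 ± 1.00 FPKM in Fn14alpha KO and WT; -0.49 ± 0.06, edgeR adjusted p = 1.90e-07). The glypican GPC6 fell in Fn14 KO by 1.98 ± 0.13 on the log2 scale (edgeR adjusted p = 9.16e-12). In Fn14alpha KO, GPC6 (0.48, edgeR adjusted p = 8.30e-04) and PORCN (0.31, edgeR adjusted p = 0.0147) were called higher than in WT. WLS was also called lower in Fn14 KO than in WT (-0.25, edgeR adjusted p = 7.54e-04). For the R-spondin ligands, their receptors and the ubiquitin ligases they act on, 3 of 9 genes were tested, with 1 higher and 2 lower in Fn14 KO and 2 and 1 in Fn14alpha KO against WT, and 1 and 1 between the knockouts. ZNRF3, a ligase that removes Frizzled from the surface, rose in Fn14 KO (1.03 ± 0.10, edgeR adjusted p = 9.28e-09; 0.57 with its neighbours' median removed), and LGR4, a receptor for R-spondins, fell in Fn14 KO (-0.50 ± 0.11, edgeR adjusted p = 6.56e-04) and in Fn14alpha KO (-0.38 ± 0.11, edgeR adjusted p = 0.00853). ZNRF3 was also called higher in Fn14alpha KO than in WT (0.37, edgeR adjusted p = 0.00675), where its neighbours' median was 0.18 and the call held under 24 of the 25 alternatives. The ligand RSPO4, named after its values were seen, was listed at 0 FPKM in all Fn14 KO libraries and averaged 0.708 ± 0.108 FPKM in Fn14alpha KO, 0.473 ± 0.0538 with TWEAK and 0.433 ± 0.146 in WT. It is 1 of the 2 genes called lower in Fn14 KO against WT, and the 1 called lower in Fn14 KO than in Fn14alpha KO. RSPO4 was also called higher in Fn14alpha KO than in WT (0.69, edgeR adjusted p = 0.0343). As it passed the filter only through groups where it was detected, these calls are given as a description. No gene of this list was called with TWEAK by edgeR, with 2 at an unadjusted p under 0.05, 0 called by DESeq2 and 1 by limma.

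Among 10 further antagonists and their receptors 5 were tested, with 2 higher and 1 lower in Fn14 KO, 1 and 1 in Fn14alpha KO, and 0 with TWEAK by edgeR (1 at an unadjusted p under 0.05, 0 by DESeq2, 0 by limma), and 2 and 1 between the knockouts. KREMEN2, a receptor for Dickkopf proteins, fell in Fn14 KO (0.807 ± 0.202 and 3.38 ± 0.258 FPKM in Fn14 KO and WT; log2 fold change -1.95 ± 0.20 SE, edgeR adjusted p = 1.18e-08). TPBG, a membrane antagonist that acts on LRP6, fell in Fn14alpha KO (21.8 ± 1.34 and 30.2 ± 0.824 FPKM in Fn14alpha KO and WT, -0.50 ± 0.06, edgeR adjusted p = 2.57e-07). In Fn14 KO it was called higher than in WT (0.19, edgeR adjusted p = 0.00702). There its neighbours' median was 0.20, and the call held under 21 of the 25 alternatives.

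All 18 genes of the destruction complex and its transducers were tested, with 6 higher and 5 lower in Fn14 KO, 5 and 2 in Fn14alpha KO, and 0 with TWEAK by edgeR (6 at an unadjusted p under 0.05, 1 by DESeq2, 0 by limma), and 8 and 7 between the knockouts. Against WT these shares are near the 52.9% and 42.2% of all genes. CTNNB1, which encodes beta-catenin, was called higher in Fn14 KO (37.5 ± 2.28 and 24.0 ± 2.34 FPKM in Fn14 KO and WT; log2 fold change 0.76 ± 0.07 SE, edgeR adjusted p = 9.33e-10), and its 100 neighbours had a median of 0.75. DVL3, a Dishevelled transducer, was called lower in Fn14 KO (-0.56 ± 0.10, edgeR adjusted p = 3.25e-05), with a neighbours' median of -0.56. With these medians removed neither was called (edgeR adjusted p = 0.908 for CTNNB1 with alternatives from 1.58e-27 to 0.908, and 0.981 for DVL3 with alternatives from 7.87e-12 to 0.981). In Fn14alpha KO against WT, CTNNB1 was called lower (-0.21, edgeR adjusted p = 0.0121) and DVL3 higher (0.30, edgeR adjusted p = 0.0124). The DVL3 call in Fn14alpha KO held under all 25 alternatives.

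Of 15 nuclear effectors, all tested, 6 were higher and 2 lower in Fn14 KO, 5 and 2 in Fn14alpha KO, and 2 and 0 with TWEAK, each against WT, and 6 and 6 between the knockouts. In the knockouts against WT that is close to the 52.9% and 42.2% of all genes. LEF1 fell in Fn14alpha KO (2.07 ± 0.178 and 3.68 ± 0.0956 FPKM in Fn14alpha KO and WT; log2 fold change -0.86 ± 0.09 SE, edgeR adjusted p = 3.27e-08; -0.55 with its neighbours' median removed), and TCF7L1, which mostly represses targets, rose there (0.80 ± 0.09, edgeR adjusted p = 2.12e-07). HHEX, a homeodomain repressor, rose with TWEAK (9.32 ± 0.527 and 5.54 ± 0.922 FPKM with TWEAK and in WT, 0.80 ± 0.12, edgeR adjusted p = 4.52e-05), as did the corepressor TLE3 (0.42 ± 0.07, edgeR adjusted p = 4.45e-04). In Fn14alpha KO, HHEX (0.41, edgeR adjusted p = 0.00766) and TLE3 (0.51, edgeR adjusted p = 5.06e-06) were also called higher than in WT. In Fn14 KO against WT, TLE3 was called lower (-0.38, edgeR adjusted p = 1.64e-04) and TCF7L1 higher (0.53, edgeR adjusted p = 4.72e-05).

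Known feedback genes and targets of beta-catenin, a list that holds AXIN2 and DKK1, were called in both directions in the knockouts. Of 24 genes 13 were tested, with 6 higher and 3 lower in Fn14 KO, 5 and 6 in Fn14alpha KO, and 3 and 0 with TWEAK against WT, and 9 and 4 between the knockouts (median log2 fold change 0.51), beside 52.9%, 42.2%, 6.87% and 59.2% of all genes. The cyclin gene CCND1 rose in Fn14 KO (136 ± 5.34 and 73.7 ± 5.04 FPKM in Fn14 KO and WT; log2 fold change 1.00 ± 0.07 SE, edgeR adjusted p = 1.08e-11). BAMBI, a TGF-beta pseudoreceptor, fell in Fn14alpha KO (0.477 ± 0.0814 and 1.04 ± 0.242 FPKM in Fn14alpha KO and WT; -1.15 ± 0.25, edgeR adjusted p = 5.90e-04; -0.705 with its neighbours' median removed). With TWEAK, the hyaluronan receptor gene CD44 (112 ± 2.82 and 69.1 ± 4.08 FPKM with TWEAK and in WT, 0.75 ± 0.06, edgeR adjusted p = 1.34e-09) and MYC (0.45 ± 0.07, edgeR adjusted p = 1.41e-04) rose. Many pathways other than Wnt also act on both. MYC was also called higher than in WT in Fn14alpha KO (0.44, edgeR adjusted p = 3.32e-05) and in Fn14 KO (0.67, edgeR adjusted p = 3.82e-08). CD44 was called lower in Fn14alpha KO than in WT (-0.25, edgeR adjusted p = 0.00132). Against WT, CCND1 was called lower in Fn14alpha KO (-0.33, edgeR adjusted p = 3.00e-04) and higher with TWEAK (0.27, edgeR adjusted p = 0.0138).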

How the data were processed

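Poly(A) RNA of 16 libraries was sequenced. HISAT2 2.0.1, HTSeq 0.6.1, cutadapt 1.9.1, FastQC 0.10.1 and DESeq2 are named in the submitters' processing notes, with the builds hg38 and GRCh38.p13. The sources used here do not give their roles, the strand setting or the treatment of multi-mapping reads. The deposited table holds raw read counts per gene with no normalization, and FPKM that the authors made from them. The deposited FPKM equal the count scaled by exonic size and library total, within 0.005.

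Genes were tested on the deposited counts with edgeR 4.0.16 (R 4.3.3; quasi-likelihood test, two-sided, TMM, filterByExpr by group, robust, 1 mean per group over all 16 libraries), and Benjamini-Hochberg adjustment ran over the 16029 genes tested, with calls at 0.05. Alternatives used library totals, DESeq2 1.42.0, no filter, limma 3.58.1 on log2(FPKM + 1) or log2(FPKM + 0.1), the replicate number as a block, the 2 groups compared only, each library left out, Fn14 KO replicate 1 and WT replicate 4 left out together, and the median of the 50 tested genes on either side removed. Simulated counts with known changes were used to test the script. The chi-square per degree of freedom between replicates was 2.30 to 39.0 over genes with at least 100 counts, so no library was counted as a repeat. Gene positions are those of the table, and exons for overlaps came from GENCODE. Plots used Python 3.11.15, matplotlib 3.10.9, pandas 2.3.3 and numpy 2.4.6.

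The genes and the pathway lists were chosen with earlier results of these data known. Values per library are given for tested genes called in at least 1 comparison that averaged 1 FPKM or more in a group, and 18 met this. For each pathway list and comparison with WT, up to 2 called genes were taken that averaged 1 FPKM or more and had the largest absolute log2 fold change. Of these, the text names only ones whose call held under all 25 alternatives, plus CTNNB1 and DVL3 in Fn14 KO, a restriction made after the values were seen. BCL9 and PYGO2 in Fn14 KO and TRABD2A in Fn14alpha KO met it but are not described. Calls of the named genes in other comparisons with WT were added without this restriction. WNT10B, WNT11, WNT2B, WNT9A and RSPO4 were named for their calls, and the stellate cell markers with lower or higher means for those means, after their values were seen. SERPINA1, TEK and CD14 were likewise named for their counts.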

Additional observations from a re-analysis of the deposited data

Results flagged for a closer look

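In 72 sets of 4 replicates (18 genes in 4 groups), 3 held a library far from the other replicates, and chance alone gives this in about 1 in 20 sets. DKK3 in Fn14alpha KO replicate 4 was at 8.57 FPKM, where the other Fn14alpha KO replicates were at 9.15 to 9.18. FZD8 in Fn14alpha KO replicate 2 was at 1.06 FPKM, where the others were at 1.38 to 1.42. FZD4 in WT replicate 4 was at 1.49 FPKM, where the others were at 1.95 to 2.00; this is also 1 of the 2 libraries that lay apart over all genes.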

How the results depend on the processing

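Of 88 gene and comparison pairs tested, 57 were called. In 42 of these the direction and the call held under all 25 alternatives, and in 15 the call was lost under at least 1, of which 2 also turned in direction. With the neighbours' median removed, LRP6 in Fn14alpha KO against WT turned to 0.27, FZD8 in Fn14 KO against Fn14alpha KO to -0.029, and DVL3 in Fn14 KO against WT to 0.0039; the cause was not tested. Of the 31 pairs not called, 12 were called under at least 1 alternative. The 2 calls of TWEAK against WT became 4 under library totals, 4 by DESeq2, 5 by limma on log2(FPKM + 1), 4 without the 2 libraries that lay apart, and 0 to 4 with each library left out in turn. With each library left out, the calls ran from 17 to 18 in Fn14 KO and from 14 to 17 in Fn14alpha KO against WT, and from 17 to 21 between the knockouts. The replicate numbers do not pair the samples: same-numbered libraries of different groups had correlations of their deviations from -0.23 to 0.11 (24 pairs, 1 over 0.1), and 3 of 16 libraries correlated best with their own number. With the replicate number as a block the calls were 18, 16, 1 and 21 in Fn14 KO, Fn14alpha KO and TWEAK against WT and between the knockouts. Depth limits the 20 genes below the filter, and floors and intervals from counts cover counting error only. The comparison with neighbouring genes treats a regional shift as background for 1 gene and cannot tell apart a shift shared by a region and changes of single genes within it.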
